A study of Homo sapiens with 9 samples.

Results

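The snoRNA host non-coding genes are spliced RNAs that carry small nucleolar RNAs (snoRNAs) in their introns and whose exons are mostly not known to make a protein. They were taken as every gene whose current symbol begins with SNHG, for small nucleolar RNA host gene, together with GAS5, ZFAS1 and EPB41L4A-AS1, which gave 30 of the 63677 gene IDs counted. Of these, 27 passed the filter on low counts, and SNHG18, SNHG28 and SNHG31 did not, with at most 5 reads in any library. RNA was measured in K562, an established erythroleukaemia line derived from chronic myeloid leukaemia, as 9 polyadenylated RNA libraries: the parental line (wild-type SRSF2), 4 CRISPR clones labelled with wild-type SRSF2 (called WT clones here, W19, W33, W36, W42) and 4 CRISPR clones labelled with SRSF2 P95H (P95H clones P9, P15, P22 and P38). SRSF2 is a serine- and arginine-rich splicing factor, and P95H is a substitution that recurs in myeloid neoplasms. Each clone is 1 library, so the spread given is between clones, and the labels give neither a treatment, a time point nor the number of mutant alleles.

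A snoRNA host is transcribed and spliced like a messenger RNA, and the snoRNA is trimmed out of the released intron. Box C/D snoRNAs guide ribose methylation of ribosomal RNA and box H/ACA snoRNAs guide its pseudouridylation. The spliced exons often hold only short reading frames, and ribosomes that stop early on them expose the RNA to nonsense-mediated decay (NMD), the pathway of UPF1 and the SMG proteins that removes transcripts with early stop codons. Many hosts also start with a terminal oligopyrimidine tract, a C followed by a run of C and T that messenger RNAs of ribosomal proteins share.

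The stretches around the start are shown because this feature is shared by members on several chromosomes and was not used to choose them. RefSeq windows of 250 bases before to 50 bases after the start were found for 26 of the 30 members. Each stretch below runs from 40 bases before the start through the first 20 transcribed bases, 5′ to 3′ on the gene's strand (GRCh38.p14). Capitals mark TATAA lying 45 to 21 bases before the start, and CTTTT or CTTTC between 5 bases before the start and transcribed base 10.
SNHG32: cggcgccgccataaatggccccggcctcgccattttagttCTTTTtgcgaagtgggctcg
SNHG12: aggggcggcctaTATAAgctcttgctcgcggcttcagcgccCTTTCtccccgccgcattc
ZFAS1: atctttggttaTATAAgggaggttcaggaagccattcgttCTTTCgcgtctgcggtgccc
SNHG5: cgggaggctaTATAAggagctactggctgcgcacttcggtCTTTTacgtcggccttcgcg
SNHG19: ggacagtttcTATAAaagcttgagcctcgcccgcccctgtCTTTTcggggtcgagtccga
SNHG30: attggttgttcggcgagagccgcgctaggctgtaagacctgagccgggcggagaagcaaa
They lie at chr6:31834876-31834935 (+), chr1:28581854-28581913 (-), chr20:49278602-49278661 (+), chr6:85678714-85678773 (-), chr16:2155339-2155398 (-) and chr17:35568074-35568133 (+), in that order. In SNHG32, ZFAS1, SNHG5 and SNHG19 the marked pyrimidines begin at the first transcribed base, and SNHG30 has neither marked motif in this stretch. CTTTT or CTTTC was found in 7 of 26 member windows (26.9%) and in 3.99% of all 35116 windows on the gene's strand. On the other strand it was in 0 of 26 member windows and in 2.15% of all windows. TATAA was found in 6 of 26 (23.1%) against 3.96% of all windows on the gene's strand, and in 1 of 26 (3.85%) against 1.81% on the other, where the match, in ZFAS1, overlaps the marked letters. Of the member windows, 5 held both motifs. These motifs were chosen after the sequences had been looked at, and a match is a description of the letters only.

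The 9 libraries held 24546255 to 35477328 reads in genes, so that 3 reads, taken as the floor, came to 0.0846 to 0.122 CPM (reads scaled to a common library total), which reflects counting error only. The members took 0.294% to 0.435% of these reads. All 10 K562 and erythroid markers were expressed, while of 12 markers of fibroblasts, epithelia, lymphocytes, monocytes, liver and endothelium 4 were at 0 in every library and 8 stayed under 1 CPM in every library. Clone W33 stood apart from the other WT clones, with 2246 of 20636 genes called different at an adjusted p under 0.05 (10.9%, edgeR's quasi-likelihood test with Benjamini-Hochberg adjustment). Values without W33 stand beside many of the main comparisons of the members and gene lists.

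Levels of the 30 members ran from 0.0139 to 196 CPM per kilobase of merged exon in WT clones. SNHG29 was the most abundant on this scale, followed by SNHG19 at 109.7, SNHG1 at 107, SNHG3 at 95 and SNHG5 at 89.3. Next came SNHG8 at 86.0, SNHG32 at 84.6 and GAS5, a growth-arrest RNA that hosts box C/D snoRNAs, at 84.2, which lie close together. The value of SNHG19 is raised by W33, at 61.4 CPM beside 29.6, 30.2 and 28.9 in W19, W36 and W42. SNHG14, the long host of the imprinted chromosome 15 snoRNA clusters, had 0.221 CPM per kilobase. Merged exons count every isoform's exons, so hosts with many alternative exons read low on this scale. Summed over members, levels were 2869 CPM in W19, 3146 in W36, 2964 in W42 and 3700 in W33. P9, P15, P22 and P38 summed to 3374, 3128, 3359 and 4387 CPM, and the parental line to 3533. The highest sums were those of P38 and W33, 1 clone of each genotype.

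**Figure D1:**
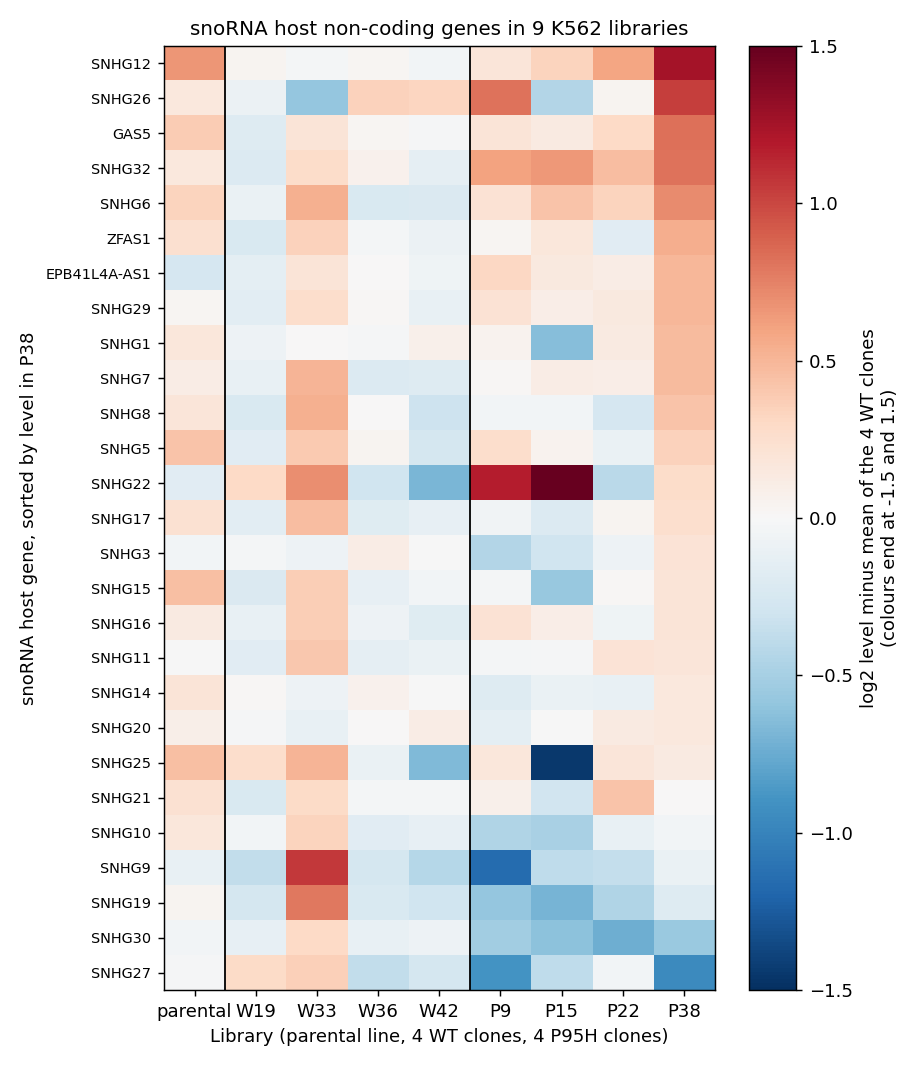
Log2 level of each of the 27 members that passed the filter (rows) in 9 libraries (columns), minus the mean of the 4 WT clones; red is higher and blue lower. W33 and P38 are red in most rows, with 22 of 27 members above the WT mean in each, while SNHG32 is red and SNHG30 blue in all 4 P95H clones.

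The first question was whether the hosts differ between clones with mutant and unmutated SRSF2. Between P95H and WT clones, 0 of 27 members and 0 of 18173 genes passed an adjusted p under 0.05 (0% of all genes, edgeR). Of the members, 18 were above 0 and 9 below, with a median log2 difference of 0.08, beside 0.01 over all genes. At an unadjusted p under 0.05 there were 5 members higher in P95H clones (6.07% of all genes) and 1 lower (5.65%). The groups did not overlap for SNHG32 and SNHG12, both higher in P95H clones (3.94% of all genes), and for SNHG30, lower in P95H clones (4.63%). DESeq2 called 2 members, SNHG32 and SNHG30, among 261 genes (1.44% of all genes). With limma-voom and quality weights 1 member, SNHG32, was called among 34 genes (0.187%).

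SNHG32 (ENSG00000204387, chromosome 6), annotated as C6orf48 and protein-coding in GENCODE 29, hosts SNORD48 and SNORD52. It stood at 131 CPM in W19, 183 in W33, 158 in W36 and 138 in W42, while P9, P15, P22 and P38 had 229, 238, 209 and 265 CPM. The parental line, at 169 CPM, lay within the WT range, and every P95H clone was above every WT clone. Bulk RNA does not tell fewer expressing cells from less RNA per cell. The log2 difference was 0.64 (SE 0.13, 1.55-fold), with an adjusted p of 0.256 by edgeR, 0.00255 by DESeq2 and 0.0450 by limma-voom with quality weights. Without W33 it was 0.73. Its 30 nearest tested genes on chromosome 6 had a median log2 difference of 0.08, with 17 of them above 0.

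SNHG30 (ENSG00000267321, chromosome 17), named LINC02001 in GENCODE 29, went the other way. Its levels were 40.7 CPM in W19, 54.7 in W33, 41.1 in W36 and 42.2 in W42, and P9, P15, P22 and P38 had 30.7, 28.8, 26.8 and 30.04 CPM. All 4 P95H clones were lower than all WT clones and than the parental line (43.1 CPM), and they lay close together (29.1 ± 1.74 CPM, SD, n = 4). The log2 difference was -0.61 (SE 0.12, adjusted p = 0.256 by edgeR and 0.00153 by DESeq2). Without W33 it was -0.50. Its 30 chromosome 17 neighbours leaned up rather than down, with 23 above 0 and a median of 0.21.

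SNHG12 (ENSG00000197989, chromosome 1), the host of SNORD99 and of several H/ACA snoRNAs, was even across WT clones at 73.3 CPM in W19, 69.4 in W33, 72.6 in W36 and 68.7 in W42. In P95H clones it ran from 80.4 CPM in P9 and 89.6 in P15 to 107 in P22 and 168 in P38. The parental line had 112 CPM, above all WT clones and above 3 of the 4 P95H clones. The log2 difference of 0.66 (SE 0.21, adjusted p = 0.331 by edgeR) was 0.64 without W33 and dropped to 0.39 without P38.

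GAS5 (ENSG00000234741, chromosome 1) stood at 266 CPM in W19, 347 in W33, 310.3 in W36 and 300.3 in W42. P9 had 349.5 CPM, P15 333, P22 374 and P38 541, and the parental line 398. The groups overlapped through W33 and P15 alone. The log2 difference was 0.39 (SE 0.16, adjusted p = 0.394 by edgeR), 0.46 without W33 and 0.22 without P38. EPB41L4A-AS1 (chromosome 5), the host of SNORA13, showed a like order: 49.5, 62.6, 54.8 and 52.3 CPM in W19, W33, W36 and W42, and 67.9, 60.5, 59.0 and 76.9 in P9, P15, P22 and P38. Its log2 difference was 0.28 (SE 0.12, adjusted p = 0.405 by edgeR), and the overlapping clones were W33, P15 and P22. It was 0.34 without W33. The parental line, at 45.8 CPM, was below every clone.

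**Figure D2:**
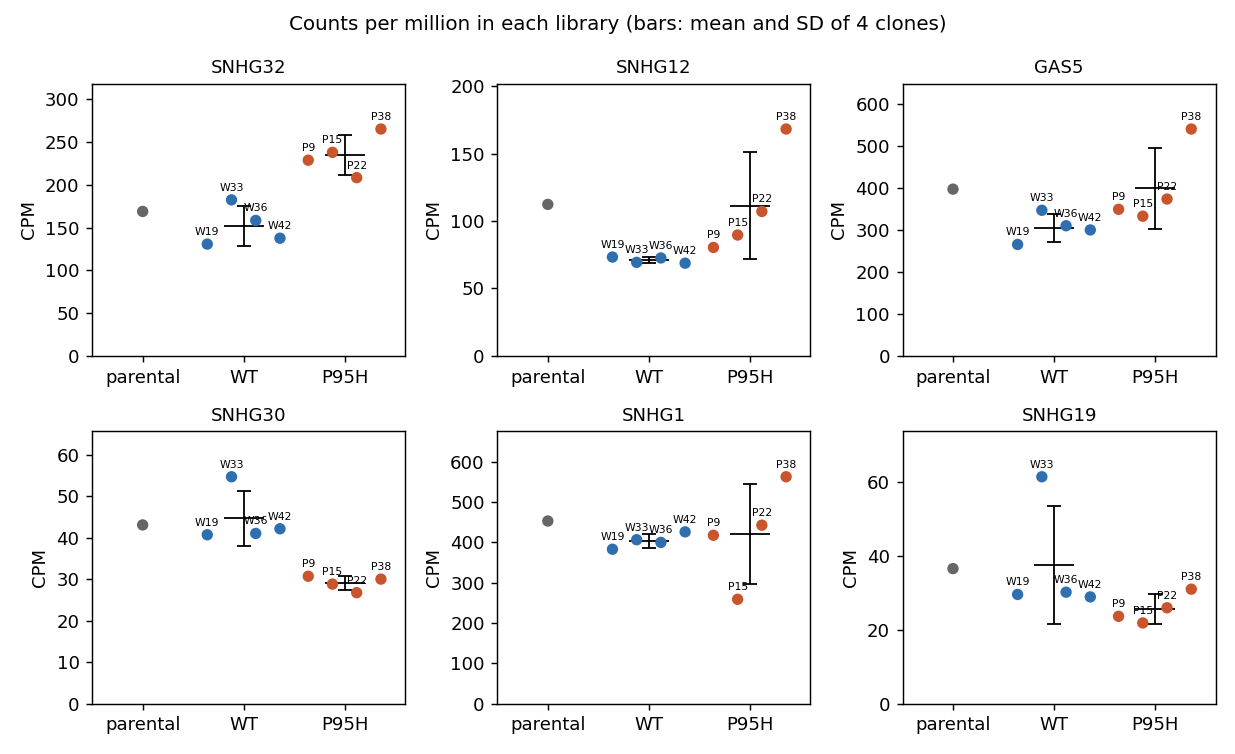
CPM of 6 members in each library, grouped as the parental line, WT clones and P95H clones; bars are the mean and SD of 4 clones and each axis starts at 0. SNHG32 and SNHG12 are higher and SNHG30 lower in every P95H clone, P38 is highest for GAS5 and SNHG1, P15 is lowest for SNHG1, and W33 stands alone for SNHG19.

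The other abundant members overlapped between the genotypes. SNHG29, the most abundant, had 654, 878, 740.5 and 676 CPM in W19, W33, W36 and W42 and 854, 787, 811 and 1030.1 in P9, P15, P22 and P38 (log2 difference 0.25, SE 0.12). ZFAS1, host of the SNORD12 family, had 115, 173, 132 and 128 CPM in WT clones and 138, 152, 121 and 197 in P95H clones, in the same order (0.16, SE 0.17). SNHG5, host of SNORD50B, had 219.9, 324, 253 and 206 CPM against 297, 256, 229.6 and 315 (0.14, SE 0.16). In each of these 3 hosts W33 was the highest WT clone and P38 the highest P95H clone. SNHG16 had 158, 219, 161 and 150.4 CPM in WT clones and 197, 183, 163 and 194 in P95H clones (0.11, SE 0.13). SNHG6 had 68.5, 106, 62.6 and 62.9 CPM against 85.4, 98.6, 92.0 and 119.5 (0.41, SE 0.18). SNHG8 had 66.1, 112, 77.5 and 62.1 CPM against 74.9, 75.2, 65.0 and 104 (0.02, SE 0.20). For SNHG6 the WT clones other than W33 all lay below the P95H clones, and for SNHG8 they did not. SNHG3, which shares 242 exon bases with the nuclear exchange factor gene RCC1 on the same strand, had 380.3, 369, 419 and 385 CPM against 287, 316, 369 and 447 (-0.12, SE 0.14). SNHG1, host of a row of box C/D snoRNAs, had 383, 406, 399.7 and 426 CPM against 417, 259, 443 and 563 (0.07, SE 0.20). Both were even across WT clones and spread widely across P95H clones. The differences of these hosts moved with single clones. Without W33 the log2 difference was 0.34 for SNHG29, 0.28 for ZFAS1, 0.28 for SNHG5, 0.24 for SNHG16, 0.62 for SNHG6 and 0.22 for SNHG8. Without P38 it was 0.16 for SNHG29, 0.01 for ZFAS1, 0.07 for SNHG5, -0.13 for SNHG8, -0.25 for SNHG3 and -0.10 for SNHG1. Without W42 SNHG5 and SNHG16 each came to 0.04, without P9 SNHG3 came to -0.04, and without P15 SNHG1 came to 0.24. The other tested members had WT means from 0.306 CPM (SNHG22) to 67.2 CPM (SNHG7).

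W33 changed how many members separated the genotypes. With W33 left out, 9 members were higher in every P95H clone than in the other 3 WT clones: SNHG16, SNHG11, SNHG29, SNHG12, SNHG32, EPB41L4A-AS1, SNHG7, GAS5 and SNHG6. Over all genes 6.97% did so. SNHG30 was the only member lower in every P95H clone (7.56% of all genes). The members' median log2 difference was then 0.22, with 20 of 27 above 0, and 8 were higher at an unadjusted p under 0.05 (7.26% of all genes), but 0 passed after adjustment over all genes by edgeR. With P38 left out instead, the median was 0.01, 15 of 27 members were above 0 and 2 were higher at an unadjusted p under 0.05 (6.44%).

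Within each genotype, 1 clone held most of the highest values. Of 27 members, 13 were highest of all 8 clones in W33 (28.9% of all genes) and 12 in P38 (7.67%), which left 2 for the other 6 clones. Within their own genotype, 21 members were highest in W33 (42.3% of all genes) and 20 in P38 (22.8%). Scaling to library totals in place of TMM gave 8 members highest in W33 and 14 in P38.

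In P38, 24 of 27 members were above the other P95H clones, with a median log2 difference of 0.33, beside -0.03 and 46.2% of genes above 0 over all genes. In that comparison 0 members and 0 of 20636 genes passed the adjusted threshold (0%, edgeR), and 3 members were higher at an unadjusted p under 0.05 (0.838% of all genes): SNHG12 (log2 difference 0.86, SE 0.18), GAS5 (0.62, SE 0.17) and SNHG3 (0.46, SE 0.17). SNHG1 (0.59, SE 0.26), SNHG8 (0.53, SE 0.30) and ZFAS1 (0.52, SE 0.23) followed in size among the abundant hosts. DESeq2 called SNHG12 (adjusted p = 0.0376), among 19 genes in all (0.0921%). The 29 nearest tested neighbours of SNHG12 had a median of 0.05 in P38, and the 30 of GAS5 a median of 0.08, so the hosts stood above the genes around them. GAS5-AS1, which shares 42 exon bases with GAS5 on the opposite strand, was 0.92 higher in P38 on the log2 scale. It had 22.3 CPM in P38, beside 541 for GAS5, and 8.99, 11.9 and 14.4 CPM in P9, P15 and P22. The strand setting of the counts is not given in the sources used here. Reads in the shared bases, 1.16% of the exon bases of GAS5, therefore cannot be told apart.

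In W33, 22 of 27 members were above the other WT clones with a median log2 difference of 0.45, and 6 were called higher (5.67% of all genes) by edgeR. These were SNHG9 (1.42, SE 0.33, adjusted p = 0.0344), SNHG19 (1.06, SE 0.18, adjusted p = 0.0181), SNHG6 (0.72, SE 0.17), SNHG7 (0.68, SE 0.17), SNHG17 (0.62, SE 0.16) and SNHG16 (0.48, SE 0.13), the last 4 with adjusted p from 0.0374 to 0.0478. SNHG19, host of SNORD60, stood at 61.4 CPM in W33 against 29.6 in W19, 30.2 in W36 and 28.9 in W42, with 23.7, 21.9, 26 and 31 in P9, P15, P22 and P38 and 36.6 in the parental line. SNHG9 had 14.9 CPM against 5.49, 5.90 and 5.26 in the same WT clones, 3.14, 5.46, 5.52 and 6.61 in P95H clones and 6.57 in the parental line. Both lie on chromosome 16, where 25 of the 30 genes nearest to SNHG19 were also above 0 in W33, with a median of 0.62. SNHG7 had 93.6 CPM in W33 and 60.7, 57.0 and 57.5 in W19, W36 and W42, beside 66.6, 71.2, 70.6 and 91.2 in P9, P15, P22 and P38 and 70.9 in the parental line. SNHG17, host of the SNORA71 family, had 83.6 CPM in W33 and 54.1, 53.2 and 55.4 in the other WT clones, with 58.1, 52.6, 62.1 and 72.1 in P95H clones and 70.8 in the parental line. Neighbours of SNHG7 had a median of 0.48, whereas those of SNHG6, SNHG16 and SNHG17 had -0.08, -0.17 and -0.21. The 3 members with an unadjusted p under 0.05 in P38, SNHG12, GAS5 and SNHG3, were at -0.04, 0.25 and -0.10 in W33. A count of 6 fell to 2 with limma-voom and to 0 when W19, W36 or W42 was left out, which leaves W33 against 2 clones.

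**Figure D3:**
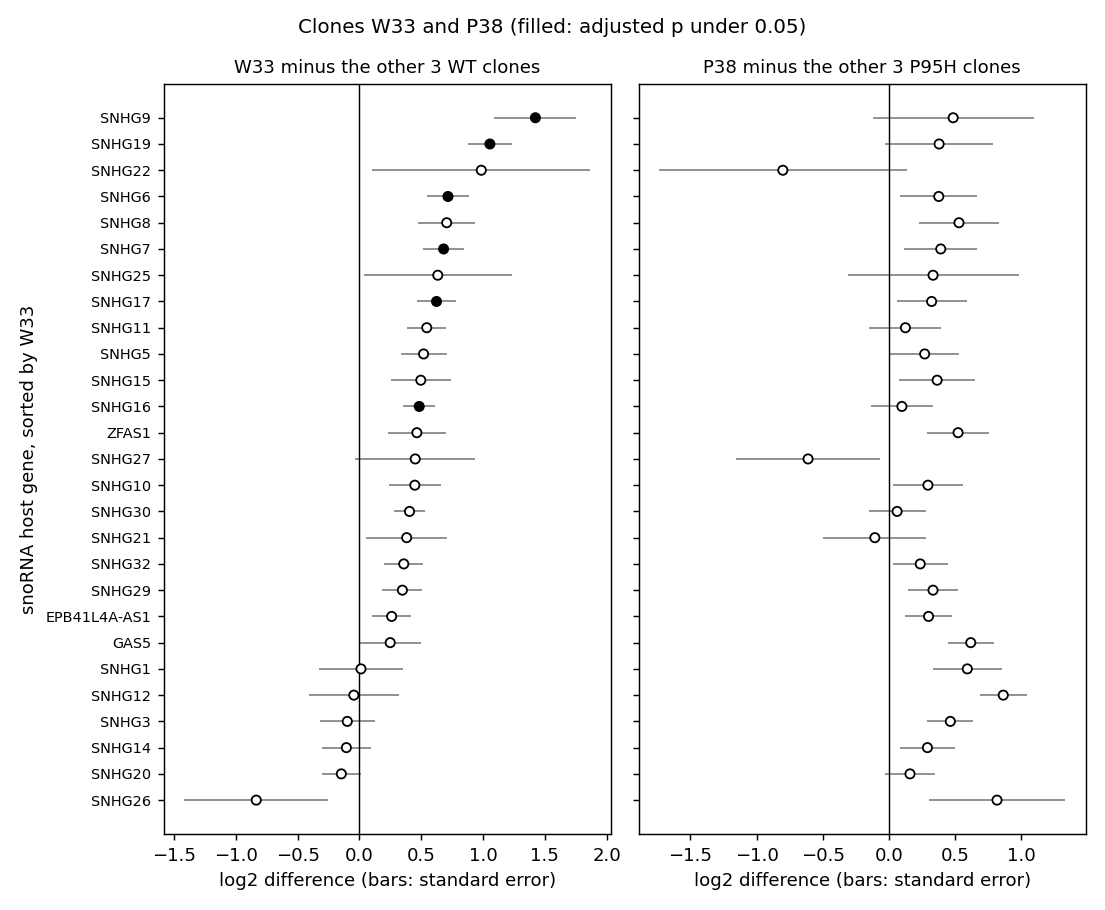
Log2 difference with its standard error for each of 27 members in W33 against the other WT clones (left) and in P38 against the other P95H clones (right), both in the order of W33; filled points passed an adjusted p under 0.05. SNHG9, SNHG19, SNHG6, SNHG7, SNHG17 and SNHG16 are filled in W33 and none in P38, where SNHG12, GAS5, SNHG1 and SNHG3 lie to the right of 0 but near 0 or lower in W33, except GAS5 at 0.25.

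P15 was low in SNHG1 (ENSG00000255717, chromosome 11), at 259 CPM against 417 in P9, 443 in P22 and 563 in P38, a log2 difference of -0.87 (SE 0.20, adjusted p = 0.280 by edgeR and 0.00388 by DESeq2, which called 1.38% of all genes). It was also the lowest of all 8 clones. Of the 30 tested genes nearest to SNHG1, 26 were below 0 in P15 as well, with a median of -0.52. By edgeR 0 members were called in P15 (0.00485% of all genes), 3 members were lower at an unadjusted p under 0.05 (3.26% of all genes), and the other two were SNHG25 (-1.66, SE 0.49, 1.05 CPM) and SNHG15 (-0.63, SE 0.25, 28.1 CPM). In P9, SNHG12 and SNHG3, which lie near each other on chromosome 1, had log2 differences of -0.60 and -0.40 from the other P95H clones, without passing the test, and 22 of the 29 genes nearest to each were below 0. Whether these clones carry fewer copies of these segments was not tested. In P22 (0 of 27 members, beside 0.426% of all genes), W42 (0 members, 0.0194%) and W19, W36 and P9 (0 members and 0% of all genes each) no member was called by edgeR. At an unadjusted p under 0.05 these clones also had 0 members, beside 8.55% of all genes in P22, 1.56% in W42, 0.591% in W19, 0.649% in W36 and 3.75% in P9. Against the other WT clones, W33 included, 22 of 27 members were below 0 in W19 and 24 in W42.

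The parental line was compared with the WT clones to see how far the cloned cells depart from it. Of 27 members 19 were above 0, with a median log2 difference of 0.15, beside -0.02 over all genes, and 0 were called (0.00485% of all genes, edgeR), with 0 at an unadjusted p under 0.05 (1.72%). SNHG12, SNHG15, SNHG5, GAS5, SNHG1 and SNHG14 were above all 4 WT clones (14.5% of all genes). SNHG12 had the largest difference at 0.66 (SE 0.31), then SNHG15 at 0.43 (SE 0.28), SNHG5 at 0.40 (SE 0.25) and GAS5 at 0.38 (SE 0.25). Without W33, 24 of 27 members were above 0 (median 0.25), 0 were called, and SNHG5 (0.54), SNHG15 (0.56), SNHG6 (0.51) and SNHG17 (0.38) had an unadjusted p under 0.05 (5.76% of all genes), while SNHG12 was at 0.64 and GAS5 at 0.44. For SNHG12 and GAS5 the parental library lay inside the range of the P95H clones and above all WT clones. For SNHG32 and SNHG30 it lay inside the WT range and outside that of the P95H clones.

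snoRNA genes that lie inside these hosts gave few reads in polyadenylated RNA. Of 133 snoRNA genes inside 27 hosts, 94 were counted, 74 of them at 0 in every library. SNHG14 alone holds 71 of the 94, with 69 at 0, and of the 23 inside other hosts 5 were at 0. Over the 9 libraries together 13 had at least 50 reads. Of those 13, 8 were highest in P38 of all 8 clones (7.67% of all genes tested). SNORD12, SNORD12B and SNORD12C among them all lie inside ZFAS1, and SNORD12C had only 3 to 28 reads per library. SNORD99, inside SNHG12, had 1.24, 0.934, 1.03 and 1.21 CPM in W19, W33, W36 and W42 and 1.57, 2.32, 2.21 and 4.08 CPM in P9, P15, P22 and P38. All P95H clones were higher, as for its host (log2 difference 1.21, adjusted p = 0.293 by edgeR), and the parental line, at 2.997 CPM, was again above the WT clones. SNORA13, inside EPB41L4A-AS1, had 1.13 CPM in P38 and between 0.421 and 0.537 CPM in P9, P15 and P22, from 10 to 34 reads per library over all libraries. SNORA73B, inside SNHG3, was the most abundant, with 13.01 CPM in P38 and between 6.39 and 9.85 CPM in P9, P15 and P22. Summed, the counted snoRNA genes reached 33.1 CPM in P38 and 16.9 to 24.1 CPM elsewhere. W33 had the lowest sum, 16.9 CPM, near P15 at 17.4 and W19 at 17.6, while most of its hosts were high. SNORA73B gave 4.71 CPM of the W33 sum, and had 8.51, 6.92 and 9.01 CPM in W19, W36 and W42. Its host SNHG3 was not among the hosts high in W33, at 369 CPM, the lowest of the WT clones. Reads counted to a snoRNA gene can come from unspliced host RNA as well as from the snoRNA, and these counts do not separate them.

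Gene lists related to the hosts were set beside them. The lists share genes: 22 ribosomal protein genes, 3 snoRNP genes and 1 NMD substrate are also among the protein-coding snoRNA hosts. Of 48 protein-coding snoRNA hosts, 43 were above 0 in P38 (median log2 difference 0.23) and 37 in W33 (0.34), but 26 between P95H and WT clones (0.01), or 32 without W33 (0.08). TPT1 (log2 difference 0.30, SE 0.09), EIF4A2 (0.47, SE 0.16) and RPL12 (0.40, SE 0.17) had the lowest p of them between genotypes, and none was called. These genes were at 0.31, 0.36 and 0.58 without W33. Ribosomal protein genes, whose messengers start with the same kind of pyrimidine tract, were above 0 for 70 of 76 in P38 (median 0.30) and 75 of 76 in W33 (median 0.54, with 25 called higher). Between genotypes 29 of 76 were above 0 (median -0.03), but 62 of 76 without W33 (median 0.11), so the direction of this list turned on that clone. RPL37 (-0.54, SE 0.17) and RPL36A (0.52, SE 0.19) had the lowest p, and were at -0.41 and 0.37 without W33. Among 8 regulators of such messengers, 4 were above 0 between genotypes, with EIF4EBP1, a repressor of cap-dependent translation, at -0.47 (SE 0.19). Without W33, EIF4EBP1 was at -0.29 and 3 of the 8 were above 0.

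Next came the proteins that package snoRNAs and those that run NMD. Of 17 snoRNA-protein (snoRNP) and assembly genes, 3 were above 0 between genotypes (median -0.14), with RUVBL2 at -0.53 (SE 0.17), NOP10 at -0.32 (SE 0.15) and NHP2 at -0.43 (SE 0.22) below 0. Without W33 these 3 were at -0.31, -0.20 and -0.15, and again 3 of 17 were above 0 (median -0.11). In P38, 15 of 17 were above 0 (median 0.13), and in W33 12 of 17 (median 0.26, with 6 called higher). Of 20 NMD factors, 15 were above 0 between genotypes with a median of 0.05, and 10 of 20 without W33 (median -0.0019). The 3 with the lowest p were on the other side of 0. DHX34, a helicase of the pathway, was at -0.35 (SE 0.14), RNPS1 at -0.24 (SE 0.16) and SMG9 at -0.16 (SE 0.12), or -0.23, -0.06 and -0.08 without W33. In W33, 5 of 20 NMD factors were above 0 (median -0.15), with 1 called higher and 3 lower, the latter beside 5.21% of all genes. Protein-coding NMD substrates, which share this decay route with the hosts, were above 0 between genotypes for 3 of 15 (median -0.15), or 6 of 15 without W33 (median -0.10). NFKBIB (-0.40, SE 0.20), ATF4 (-0.29, SE 0.16) and BAG1 (-0.38, SE 0.22) had the lowest p, and were at -0.19, -0.16 and -0.10 without W33. Of 15 other long non-coding RNAs, 9 were above 0 (median 0.10), or 11 without W33 (median 0.09). H19, an imprinted RNA, had the lowest p (-0.95, SE 0.21, or -0.90 without W33). Next were MIAT (0.65, SE 0.26, or 0.70 without W33) and NORAD (0.27, SE 0.13, or 0.17 without W33). DANCR, a further non-coding snoRNA host without the SNHG name, was at -0.43 (SE 0.14), or -0.36 without W33. In these lists 0 genes were called between P95H and WT clones by edgeR, with or without W33. Whether the lists differ from the hosts was not tested.

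**Figure D4:**
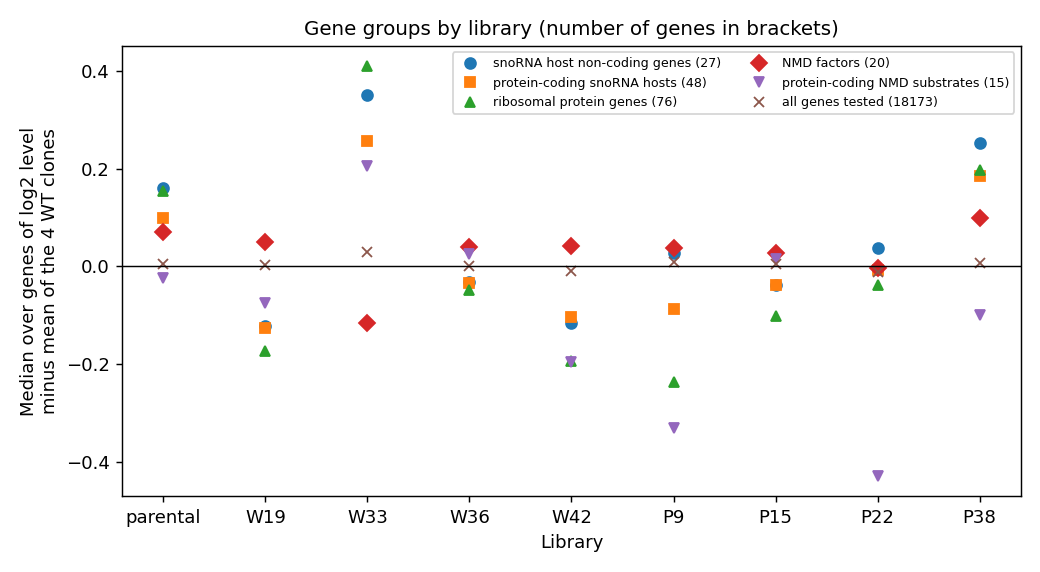
Median over the genes of each list of the log2 level minus the mean of the 4 WT clones, by library. In W33 and P38 the snoRNA host non-coding genes (0.35 and 0.25), the protein-coding hosts (0.26 and 0.19) and the ribosomal protein genes (0.41 and 0.20) lie above all genes tested (0.03 and 0.01).

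Several members share exons with a partner, and reads in the shared bases may be mixed between them or left out as ambiguous. Strand is not marked by the kit named in the labels, and whether counting used strand is not known. LRRC75A overlaps SNHG29 by 452 bases on the opposite strand and was 0.11 higher in P95H clones on the log2 scale, beside 0.25 for SNHG29. EPB41L4A overlaps EPB41L4A-AS1 by 1659 bases and had a difference of 0.09, beside 0.28. MCMDC2 overlaps SNHG6 by 365 bases and had 0.36, beside 0.41, and DIPK1B overlaps SNHG7 by 1094 bases and had -0.06, beside 0.17. The partner of SNHG12, TRNAU1AP, shares 8 bases and had 0.02, beside 0.66. SEC14L1 shares 460 bases with SNHG20 on the same strand and had 0.51, beside 0.04. Partner and host thus lay close for SNHG6 and apart for SNHG12 and SNHG20.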

How the data were processed

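Polyadenylated RNA of 9 K562 cultures was counted. The files, as deposited, hold raw read counts by Ensembl gene ID on GRCh37, made with HTSeq 0.6.1p1 after TopHat2 2.0.4 and bcl2fastq, per the submitters' processing notes. Whether counting used strand is not known from these notes. The 5 summary values per library (47.6% to 49.1% of listed reads in no gene, 2.23% to 2.55% ambiguous, 5.06% to 6.06% not unique) were left out. Symbols came from a current table by gene ID, else from GENCODE 29; 4 members were renamed since that release. The members, lists, tests and naming rule were chosen with earlier results of these data known. SNHG4 was not analysed here.

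P95H and WT clones were compared with edgeR 4.0.16 in R 4.3.3 (filterByExpr, TMM scaling, robust quasi-likelihood fit), with p-values adjusted over all genes by Benjamini-Hochberg and a threshold of 0.05. The parental line, and each clone against the other 3 of its group, were tested in fits of all 9 libraries, which take the spread of the lone library from the replicated groups. In these fits the filter can keep genes with enough reads in only 1 library, since the parental line is a group by itself. It kept 20636 genes, beside 18173 in the fit of the 8 clones, while the same 27 members passed in each. CPM follow TMM scaling, and log2 levels used a prior count of 2. Neighbours were the 15 nearest tested genes on each side in GENCODE 29 order, other members left out of the count. The alternatives covered RLE or upper quartile scaling, the filter (none, or 1 CPM in 4 libraries), DESeq2 1.42.0, limma-voom (limma 3.58.1), a 3-group fit, each clone left out, W33 and P22 left out together, and 30 neighbours on each side. Other scalings for the highest library were added after seeing the data. Full values are given for GAS5, SNHG12, ZFAS1, EPB41L4A-AS1, the 8 other members with the highest mean CPM and members past the threshold; others were named by lowest p, up to 3 per comparison or list. SNHG30 was named this way. Nothing in the labels says whether clones came from separate edits, so p-values measure the spread between these libraries, which held 24546255 to 35477328 reads in genes.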

Additional observations from a re-analysis of the deposited data

Results flagged for a closer look

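In 8 of the 27 members W33 lay apart from the other 3 WT clones, which were close together; among all 18173 genes tested W33 was the highest and apart in the same way in 7.65%. Chance alone sets about 1 in 20 groups apart, and 54 groups of 4 clones were examined. W33 was the highest WT clone in each: SNHG16 at 218.7 CPM (the others 150.4 to 161.0), SNHG6 at 106.3 (62.6 to 68.5), SNHG7 at 93.63 (57.0 to 60.7), SNHG17 at 83.58 (53.2 to 55.4), SNHG19 at 61.44 (28.9 to 30.2), SNHG30 at 54.73 (40.7 to 42.2), SNHG11 at 20.32 (13.6 to 14.3) and SNHG9 at 14.89 (5.26 to 5.90). These groups share the library W33 and are not independent of each other. Among the P95H clones, SNHG25 was apart in P15, the lowest at 1.05 CPM (the others 3.25 to 3.37), beside 0.803% of all genes.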

How the results depend on the processing

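The count of members called between P95H and WT clones was 0 under every alternative run except DESeq2 (2) and limma-voom with quality weights (1), and leaving out each clone gave 0 to 0. In W33 the count of 6 fell to 2 with limma-voom and ran from 0 to 6 over the clones left out. P15 and P38 each gained 1 member with DESeq2, which called 1.38% and 0.0921% of all genes there. Members highest in W33 fell from 13 to 8 with library-total scaling. With 30 neighbours on each side the medians in P9 were -0.34 around SNHG12 and -0.36 around SNHG3, beside -0.28 and -0.29 with 15. Among members with full values, 3 small differences between genotypes changed sign. SNHG1 was -0.10 without P38 (range -0.10 to 0.24 over clones left out). SNHG8 was -0.0010 with upper quartile scaling (-0.13 to 0.22). SNHG17 was -0.0029 with RLE scaling, -0.0153 with upper quartile scaling, -0.0029 with DESeq2 and -0.0079 in the 3-group fit (-0.0815 to 0.18). Of the other members, SNHG15 (-0.17 to 0.06), SNHG25 (-0.35 to 0.11) and SNHG21 (-0.07 to 0.19) changed sign over the clones left out. The cause was not tested. SNHG32, SNHG30, SNHG12 and GAS5 kept their direction under all alternatives run. Depth limits SNHG22 and SNHG27, which had at most 32 and 42 reads in a library. No paired analysis was possible because the clone numbers differ between the groups.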
